A study of Caenorhabditis elegans with 104 samples.

Results

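The transthyretin-related genes of Caenorhabditis elegans carry the public name ttr followed by a number, and 59 genes have such a name in RefSeq. Probe names on the array are sequence names, and 49 of the 59 genes were matched to a probe this way, each to 1 probe. The 49 are the members described here, among 18889 genes measured in all. A member lacked a value in at most 3 worms, and 38 members had one in every worm. The remaining 10, ttr-7, ttr-34, ttr-36, ttr-38, ttr-41, ttr-42, ttr-45, ttr-49, ttr-56 and ttr-57, had no matching probe and are not analysed here.

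Wild-type N2 worms, born within a 2-hour egg lay and kept at 20 °C on OP50 bacteria, were frozen one by one after filming on a plate without food. The groups were worms aged 4 days (13 worms), 8, 12, 14 and 16 days (17 worms each), 20 days (14 worms) and 24 days (9 worms), with no other treatment or genotype. RNA of each worm was amplified in 2 rounds, labelled with Cy5 and set on 1 array against Cy3-labelled RNA of a pool of 15 worms aged 4 days. Every value below is therefore a log2 ratio of 1 worm over that young pool, a difference of 1 is a change of 2 times, and 0 is the level of the pool.

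Transthyretin is a small secreted protein that carries thyroid hormone and, together with retinol-binding protein, vitamin A in vertebrate blood. Nematodes have a large family of related small proteins, most of them predicted to be secreted, and few have a known function. TTR-52 binds phosphatidylserine on the surface of dying cells and links it to the engulfment receptor CED-1. TTR-33 protects dopamine neurons from oxidative damage, and TTR-11 binds phosphatidylserine on injured axons. For the other members described here no function is given, and they are ordered by how their levels changed with age.

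The direction of the ratio, worm over pool, is the usual one and is not stated for the deposited values, so a reversed sign would turn every direction. All worms came from 1 cohort and each age from 1 harvest of it, so age and harvest day cannot be told apart and p-values cover worm-to-worm spread only. A whole worm holds many tissues, so fewer cells of a type and less RNA per cell cannot be told apart. A gene counts as called where limma gave it a p under 0.05 after Benjamini-Hochberg adjustment over all 18889 genes. Arrays lacked 9 to 464 of their 22490 probe values and had medians from -0.034 to 0.009. Pairs of arrays correlated with r from -0.062 to 0.669. Depth has no meaning for these arrays, and the number of worms limits the precision.

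At day 4 the worms and the pool had the same age, so this comparison shows ratios that arise without ageing. The median of the 49 members was 0.00 at day 4, with member means from -1.36 to 0.93. By limma 1 member was higher than the pool (background 7.89% of all genes) and 8 were lower (background 10.2%). The lower ones were led by ttr-48 at -1.36 ± 0.26 (SE, n = 13, adjusted p = 2.25e-05) and ttr-15 at -1.20 ± 0.35 (SE, n = 13, adjusted p = 0.00943). In 11 of 13 worms ttr-48 lay below the pool, and in 12 of 13 worms ttr-15 did. The only higher member, ttr-43, stood at 0.93 ± 0.34 (SE, n = 13, adjusted p = 0.0443), a call lost with array weights. The contrasts that follow set worms against worms, so the pool drops out of them.

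**Figure D1:**
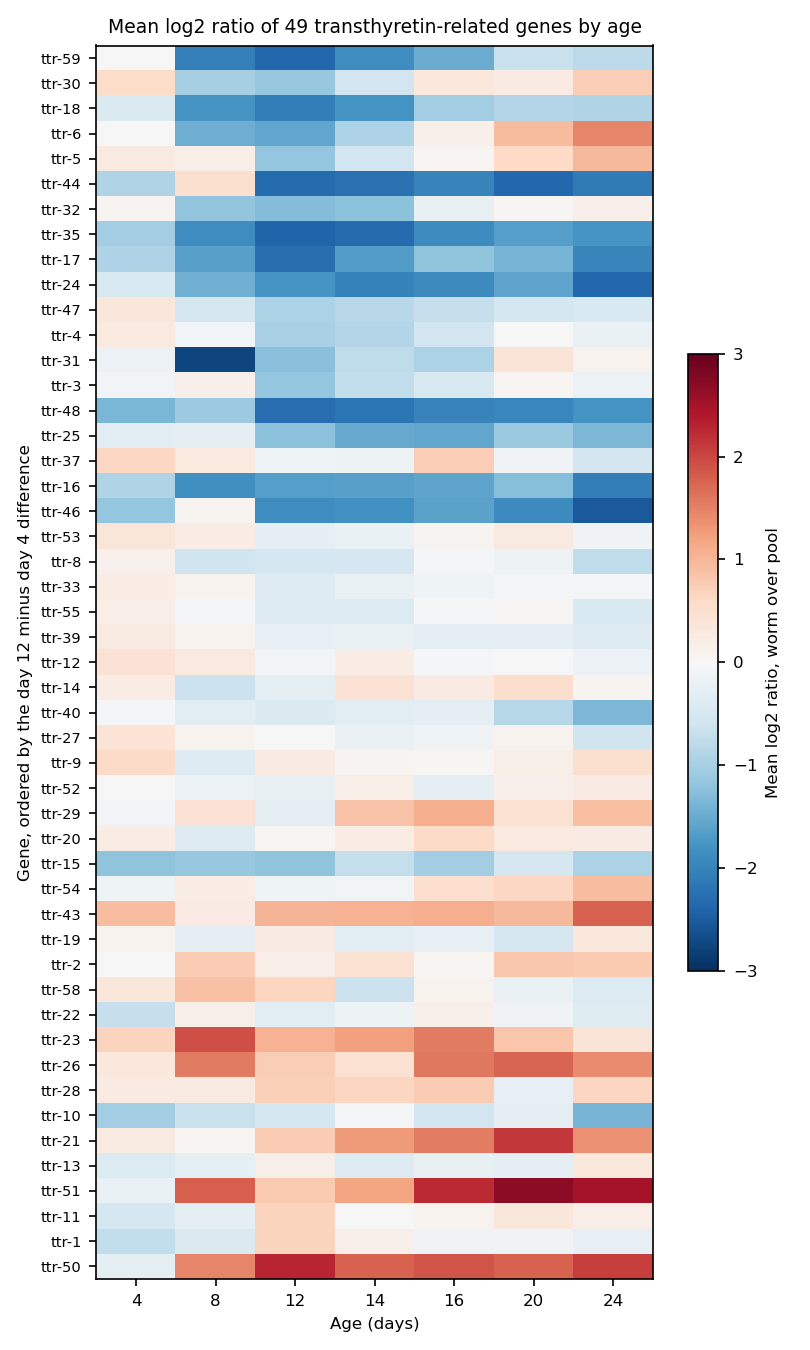
Mean log2 ratio of worm over pool for the 49 measured transthyretin-related genes (rows) at the 7 ages (columns, days), with red above and blue below the pool. Rows are ordered by the difference between days 12 and 4, from ttr-59 (-2.35) at the top to ttr-50 (2.58) at the bottom. Of the 49 rows, 17 have their lowest mean at day 12 and 17 their highest at day 4, a count not made over all genes.

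Singled out for its time course with earlier results of these data known, ttr-6 is described without a test. Its values led to its choice, so counts of called members that would include it are also given for the 48 others, and only those are read against the background. At day 4 the lowest, median and highest worms were at -1.72, -0.36 and 2.42, and the mean was 0.01 ± 1.30 (SD, n = 13). By day 8 they were at -3.63, -1.46 and 2.17, with a mean of -1.45 ± 1.33 (SD, n = 17), and 16 of 17 worms lay below the pool. The 12-day-old worms were at -3.54, -1.97 and 0.37, with a mean of -1.56 ± 1.41 (SD, n = 17). The fall was thus almost complete at day 8, and the means of days 8 and 12 lay within each other's spread.

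From day 12 on, each later age had a higher mean of ttr-6. The lowest, median and highest worms were at -3.0, -0.53 and 0.66 at day 14 (mean -0.93 ± 1.37, SD, n = 17), and at -2.40, 0.76 and 1.97 at day 16 (mean 0.16 ± 1.49, SD, n = 17). They were at -1.43, 0.60 and 3.10 at day 20 (mean 0.95 ± 1.27, SD, n = 14), and at -0.77, 1.42 and 3.57 at day 24 (mean 1.46 ± 1.44, SD, n = 9). Day 24 was the highest of the 7 means, followed by days 20, 16, 4, 14, 8 and 12, and neighbours in this order differed by less than 1 SD between worms.

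Single worms showed how far the ages overlapped. Above the highest 12-day-old worm (0.37) lay 3 of 17 worms at day 14, 9 of 17 at day 16, 8 of 14 at day 20 and 7 of 9 at day 24. Below -1 lay 10 of 17 worms at day 12, 8 of 17 at day 14, 5 of 17 at day 16, 1 of 14 at day 20 and 0 of 9 at day 24. Low worms thus became fewer after day 12 while the highest worms moved up. The mean at day 24 was 3.02 ± 0.56 (SE) above that at day 12, a factor of 8.1, and the mean at day 12 was 1.57 ± 0.50 (SE) below that at day 4.

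**Figure D2:**
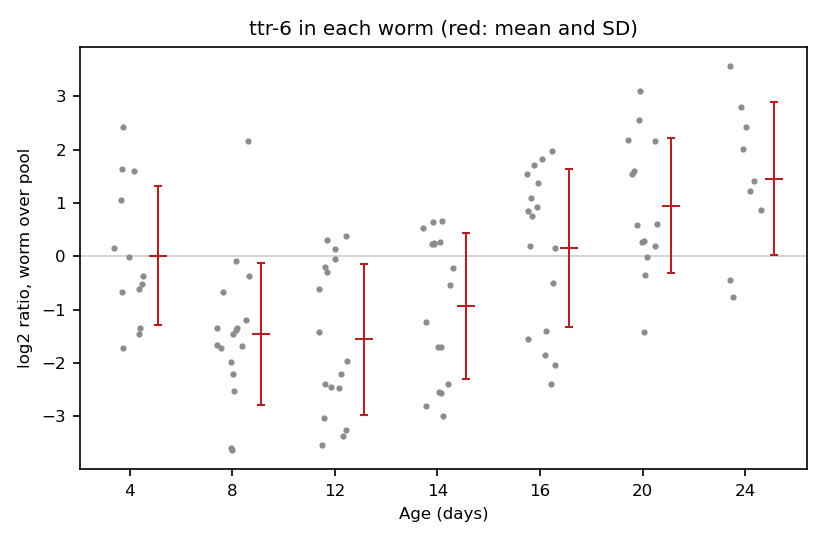
Log2 ratio of ttr-6, worm over pool, in each worm (grey points) by age in days, with the mean and SD of each age in red. Means fall from 0.01 at day 4 to -1.56 at day 12 and rise to 1.46 at day 24, and points of neighbouring ages overlap.

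Across the family, day 12 against day 4 was the contrast between ages with the most members called. At day 12, 15 of 49 members were lower (background 11.2% of all genes), or 30.6%, and 2 were higher (background 11.5%), or 4.08%. Without ttr-6, which is the count read against the background, 14 of 48 were lower, or 29.2%. The median difference of the 49 members, ttr-6 included, was -0.52, against 0.01 for all genes, and 34 of 49 differences were below 0. Neither value was recomputed without ttr-6. Beside ttr-6 the lower members were ttr-3, ttr-4, ttr-5, ttr-17, ttr-18, ttr-24, ttr-30, ttr-32, ttr-33, ttr-35, ttr-44, ttr-47, ttr-48 and ttr-59. Annotated as a pseudogene in RefSeq, ttr-4 was among them, at -1.26 ± 0.37 (SE, adjusted p = 0.00634).

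The deepest fall of these was that of ttr-59. Its lowest, median and highest worms were at -1.93, 0.16 and 1.77 at day 4 (mean 0.00 ± 1.06, SD, n = 13) and at -4.07, -2.26 and 1.36 at day 12 (mean -2.35 ± 1.23, SD, n = 17). The ranges overlapped, but 14 of 17 worms at day 12 lay below every worm at day 4. The difference was -2.35 ± 0.58 (SE, limma adjusted p = 0.0012), a factor of 5.10. Later means were -1.86 at day 14, -1.48 at day 16, -0.66 at day 20 and -0.79 at day 24.

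Next to ttr-59 on chromosome X, with no other protein-coding gene between them, lies ttr-30. Its worms ranged from -0.50 to 1.31 with a median of 0.40 at day 4 (mean 0.55 ± 0.64, SD, n = 13). At day 12 they ranged from -2.67 to 2.12 with a median of -1.10 (mean -1.14 ± 1.26, SD, n = 17), and 16 of 17 lay below the pool. The difference was -1.70 ± 0.49 (SE, limma adjusted p = 0.00596). By day 24 the mean of ttr-30 was 0.73 ± 1.98 (SD, n = 9), with worms from -1.91 to 4.68, so the oldest worms covered both the low and the high levels.

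The single gene of the family measured on chromosome II, ttr-18, changed by -1.65 ± 0.41 (SE, limma adjusted p = 0.00111). Its lowest, median and highest worms were at -2.18, -0.37 and 1.5 at day 4 and at -3.24, -2.36 and 0.63 at day 12. Its mean was -0.42 ± 1.13 (SD, n = 13) at day 4, -2.07 ± 1.07 (SD, n = 17) at day 12 and -0.91 ± 1.01 (SD, n = 9) at day 24. As with ttr-59, the level at day 24 lay between those of days 12 and 4.

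Smaller differences with less spread between worms were those of ttr-47 and ttr-35. The mean of ttr-47 went from 0.34 ± 0.78 (SD, n = 13) at day 4 to -0.96 ± 0.70 (SD, n = 17) at day 12, a difference of -1.30 ± 0.26 (SE, limma adjusted p = 4.81e-05). At day 12, 16 of 17 worms lay below the pool for ttr-47, with a highest worm at 0.01. In every worm of days 8, 12, 14 and 16, ttr-35 lay below the pool, as it did in 10 of 13 worms of day 4. Its mean was -1.04 ± 1.11 (SD, n = 13) at day 4 and -2.40 ± 0.91 (SD, n = 17) at day 12. Its difference was -1.36 ± 0.31 (SE, limma adjusted p = 0.000338).

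Of the 15 members lower at day 12 than at day 4, 14 had a day 24 mean above their day 12 mean, and ttr-24 did not; without ttr-6 these were 13 of 14. Both differences rest on the same day 12 worms, so a low mean there moves them in opposite directions, and the values are given side by side only. The same count was not made over all genes called lower at day 12, so it is not read as a trait of the family. Among the 48 members other than ttr-6, 1, ttr-5, was higher at day 24 than at day 12 by limma (background 0.725% of all genes), and 0 were lower (background 0.408%). Counting all 49, 13 had an unadjusted p under 0.05, and 2 were called, against 5 higher and again 0 lower with array weights. The shares of all genes beside the 13 and the 5 are not given here. The members lower at day 24 than at day 4 included 3 of the 15.

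Among these 48, the member called both as lower at day 12 than at day 4 and as higher at day 24 than at day 12 was ttr-5. Its lowest, median and highest worms were at -2.27, 0.30 and 2.19 at day 4, and at -2.01, 0.24 and 2.22 at day 8. At day 12 they were at -2.88, -1.21 and 0.96, and at day 24 at -1.82, 1.20 and 3.01. Unlike ttr-6, ttr-5 had about its day 4 level at day 8 (mean 0.17 ± 0.97, SD, n = 17, against 0.27 ± 1.29, SD, n = 13, at day 4). It then fell by 1.33 ± 0.39 to day 12 (SE, limma adjusted p = 0.00987) and stood 2.14 ± 0.46 higher at day 24 than at day 12 (SE, adjusted p = 0.00502).

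**Figure D3:**
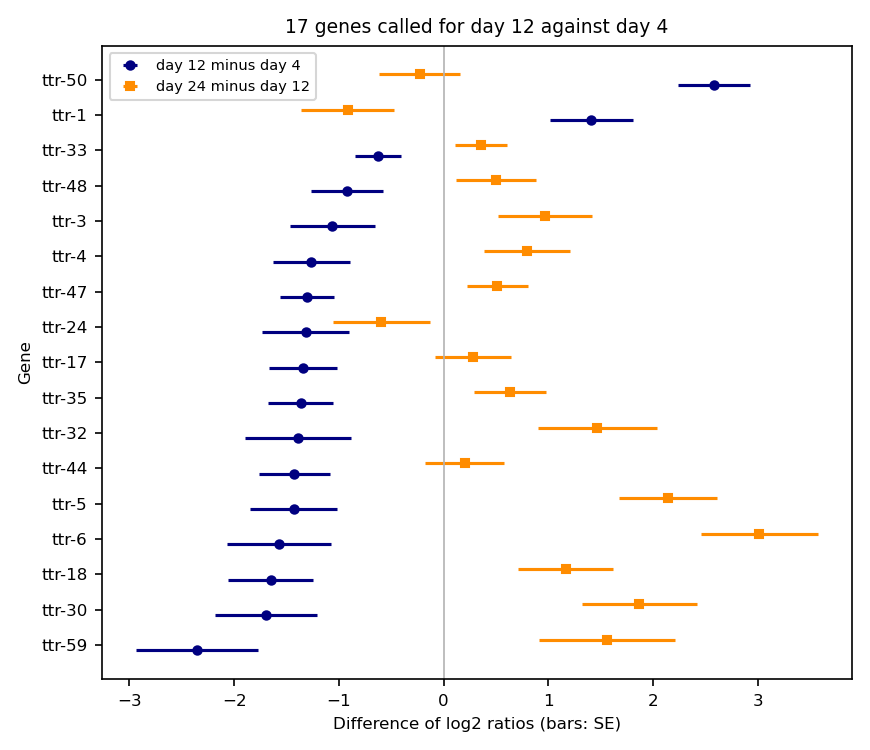
Differences of mean log2 ratios for the 17 members called for day 12 against day 4, with day 12 minus day 4 as blue circles and day 24 minus day 12 as orange squares (bars, SE). Of the 15 genes with a blue circle below 0, 14 have an orange square above 0. The largest is that of ttr-6 at 3.02. Both differences share the day 12 worms, and this count was not made over all genes.

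The first step, day 8 against day 4, held 5 members that were higher (background 5.21% of all genes) and 6 that were lower (background 6.14%), or 5 of 48 lower without ttr-6. Higher were ttr-23, ttr-44, ttr-46, ttr-50 and ttr-51, and lower, beside ttr-6, were ttr-18, ttr-30, ttr-31, ttr-47 and ttr-59. With array weights, 6 members in place of 11 were called, 4 higher and 2 lower, all among the 11. The share of all genes called with array weights is not given here. Among the calls lost were those of ttr-18, ttr-30, ttr-46 and ttr-47. The lowest mean of any member at any age was that of ttr-31 at day 8. All 17 of its worms lay between -4.50 and -1.12 there, with a median of -2.66, while those of day 4 lay between -1.98 and 1.45, with a median of 0.03. Of the 17 worms at day 8, 13 lay below every worm at day 4, and the difference was -2.58 ± 0.43 (SE, limma adjusted p = 2.84e-06), a factor of 5.99.

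After day 8 the level of ttr-31 climbed back. The mean was -2.76 ± 1.02 at day 8 and -1.26 ± 1.11 at day 12 (SD, n = 17 each), a difference of 1.5 ± 0.40 (SE, limma adjusted p = 0.00453). It was 0.39 ± 1.39 (SD, n = 14) at day 20 and 0.10 ± 1.19 (SD, n = 9) at day 24. These late worms, from -1.95 to 2.35, overlapped the young ones, from -1.98 to 1.45.

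A different course, a peak at day 8 followed by a lasting low level, was seen for ttr-44 and ttr-46. At day 4 the lowest, median and highest worms of ttr-44 were at -2.41, -1.02 and 1.28, and at day 8 at -1.39, 0.43 and 2.26. At day 12 they were at -4.13, -2.25 and -0.61, and from then on all worms of days 12 to 24 lay below the pool. Of the worms of day 4, 11 of 13 already lay below it. The rise was 1.38 ± 0.34 (SE, limma adjusted p = 0.00238), and the fall from day 8 to day 12 was -2.81 ± 0.31 (SE, adjusted p = 3.02e-11), a factor of 7.01. In the latter step 14 of 17 worms lay below every worm of day 8.

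For ttr-46 the worms ranged from -3.91 to 1.10 at day 4, from -2.27 to 3.32 at day 8 and from -5.14 to -0.27 at day 12. Its mean went from -1.17 ± 1.38 (SD, n = 13) to 0.09 ± 1.39 (SD, n = 17) and -1.87 ± 1.35 (SD, n = 17), and ended at -2.51 ± 0.80 (SD, n = 9) at day 24. The rise to day 8 was 1.26 ± 0.42 (SE, limma adjusted p = 0.0348) and the fall to day 12 was -1.96 ± 0.39 (SE, adjusted p = 0.00013). All 9 worms of day 24 lay below the pool, but so did 12 of 13 worms of day 4.

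In all, day 12 against day 8 held 2 higher members, ttr-1 and ttr-31 (background 7.76% of all genes), and 5 lower ones, ttr-3, ttr-5, ttr-44, ttr-46 and ttr-48 (background 7.83%). Of the 49, ttr-1 was the member called higher at day 12 than at both earlier ages. Its mean was -0.73 ± 1.46 (SD, n = 13) at day 4, -0.44 ± 0.94 (SD, n = 17) at day 8 and 0.68 ± 1.10 (SD, n = 17) at day 12, and then -0.24 ± 0.59 (SD, n = 9) at day 24. The difference between days 12 and 4 was 1.41 ± 0.40 (SE, limma adjusted p = 0.00481).

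Later single steps gave no calls by limma. Of the 49 members, 0 were called for day 14 against day 12 (background 0.0% of all genes), day 16 against day 14 (background 0.0159%), day 20 against day 16 (background 0.254%, with 0.143% higher and 0.111% lower) and day 24 against day 20 (background 0.0%). Unadjusted p-values under 0.05 numbered 2, 5, 3 and 1 in these steps, and they were not counted over all genes. The median of the member means, ttr-6 included, was -0.35 at day 12 and -0.33, -0.11, 0.01 and -0.18 at days 14, 16, 20 and 24. Over all genes the median was between -0.01 and 0.00, but every array had a median near 0, which leaves it little room to move. Whether the member median changed was not tested.

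**Figure D4:**
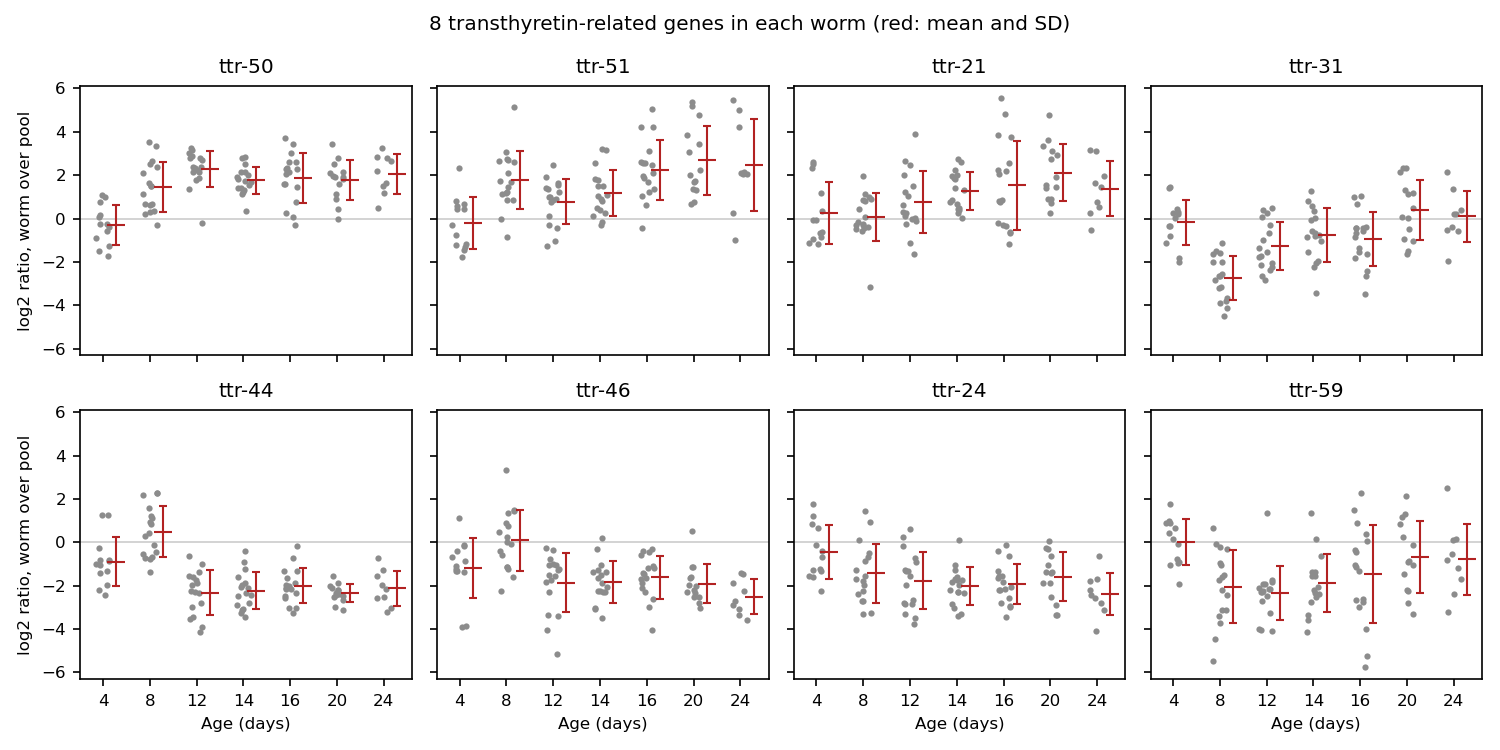
Log2 ratio, worm over pool, of 8 transthyretin-related genes in each worm (grey points) by age in days, with mean and SD in red. The genes ttr-50, ttr-51 and ttr-21 are above the pool at most later ages, and ttr-31 is lowest at day 8. Both ttr-44 and ttr-46 peak at day 8 and stay low from day 12, and ttr-24 is low from day 8. The mean of ttr-59 is lowest at day 12 (-2.35) and stands at -0.79 at day 24.

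Over the slope of all 7 ages, 6 members rose (background 13.7% of all genes) and 6 fell (background 14.2%). Together these are 24.5% of the members. Without ttr-6 they are 11 of 48, or 22.9%, against 27.8% of all genes, so not above the background. Beside ttr-6 the risers were ttr-21, ttr-31, ttr-50, ttr-51 and ttr-54, and those that fell were ttr-24, ttr-25, ttr-39, ttr-40, ttr-44 and ttr-46. The steepest tested rise was that of ttr-51, at 0.1265 ± 0.0244 per day (SE, limma adjusted p = 1.99e-05). Its lowest, median and highest worms were at -1.78, -0.31 and 2.35 at day 4, and at 0.67, 2.12 and 5.37 at day 20, when all 14 worms lay above the pool. At day 24 the difference from day 4 was 2.69 ± 0.58 (SE, adjusted p = 0.000317), a factor of 6.47.

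Most of the change in ttr-50 came early. Its worms ranged from -1.73 to 1.09 with a median of -0.26 at day 4, from -0.27 to 3.53 with a median of 1.48 at day 8, and from -0.20 to 3.26 with a median of 2.37 at day 12. In the last group 16 of 17 worms lay above every worm of day 4. The difference between days 12 and 4 was 2.58 ± 0.34 (SE, limma adjusted p = 3.79e-09), a factor of 5.99, and that between days 24 and 4 was 2.36 ± 0.41 (SE, adjusted p = 5.34e-06). Its slope of 0.088 per day turned to -0.0168 when days 12 to 24 were taken alone.

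A rise spread over more ages was that of ttr-21, at 0.102 ± 0.0238 per day (SE, limma adjusted p = 0.000435). It was also called without day 4, but with days 12 to 24 alone its slope of 0.0763 was not (limma adjusted p = 0.357). Means were 0.27 ± 1.42 (SD, n = 13) at day 4, 0.76 ± 1.41 (SD, n = 17) at day 12, 2.12 ± 1.32 (SD, n = 14) at day 20 and 1.38 ± 1.26 (SD, n = 9) at day 24. All 17 worms of day 14 and all 14 of day 20 lay above the pool, against 5 of 13 at day 4. A smaller slope was that of ttr-54, at 0.0476 ± 0.0157 per day (SE, adjusted p = 0.0147); it did not pass without day 24, and neither did the fall of ttr-40.

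Among the falls, ttr-44 was steepest at -0.118 ± 0.0201 per day (SE, limma adjusted p = 1.47e-06), followed by ttr-46 at -0.0936 ± 0.0211 (SE, adjusted p = 0.000251). For ttr-44 the slope was 0.0064 with days 12 to 24 alone. The slope of ttr-24 was -0.0703 ± 0.0196 per day (SE, adjusted p = 0.00334), and its worms ranged from -2.26 to 1.78 at day 4 and from -4.08 to -0.63 at day 24. Beside it on chromosome V, ttr-25 had a slope of -0.0621 ± 0.0182 (SE, adjusted p = 0.00558), which was 0.0089 with days 12 to 24 alone, while ttr-26, the third gene of that run, had a mean of 0.32 at day 4 and 1.42 at day 24 and was not called over the slope. Without day 4 the slopes of ttr-24, ttr-25, ttr-39 and ttr-50 were not called.

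At day 24 the lowest means were those of ttr-46, ttr-24, ttr-44 and ttr-16. For day 24 against day 4, 2 members were higher (background 8.35% of all genes), ttr-50 and ttr-51, and 6 were lower (background 8.14%), ttr-16, ttr-17, ttr-24, ttr-40, ttr-44 and ttr-46. The largest fall was -1.91 ± 0.49 for ttr-24 (SE, limma adjusted p = 0.00253), then -1.34 ± 0.49 for ttr-46 (SE, adjusted p = 0.0484) and -1.31 ± 0.43 for ttr-40 (SE, adjusted p = 0.0211). The call of ttr-46 was lost with array weights. It was also lost when each probe was tested on its own, although ttr-46 has 1 probe and its values were the same there. In that setting the adjustment ran over probes in place of genes. For ttr-40 the mean was -0.03 ± 1.25 (SD, n = 13) at day 4, between -0.43 and -0.28 at days 8 to 16, -0.86 at day 20 and -1.35 ± 1.09 (SD, n = 9) at day 24, with 8 of 9 of the oldest worms below the pool.

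By a moderated F test across the ages, 23 of 49 members were called (background 33% of all genes), or 46.9%, and 22 of 48 without ttr-6. Of the 23, 9 also had a slope and 14 did not. The smallest p-values were those of ttr-44 (adjusted p = 6.73e-14), ttr-31 (adjusted p = 8.16e-09) and ttr-50 (adjusted p = 4.16e-08). Those called by the slope and not by the F test were ttr-39, ttr-40 and ttr-54. Counted by the age of their means, 17 members were highest at day 4 and 17 were lowest at day 12, while 9 were highest and 12 lowest at day 24. This count was not made over all genes, and the means of days 4 and 24 rest on the fewest worms, so it is not read as a trait of the family. How many of all genes called by the F test lacked a called slope was not counted.

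None of the 3 members with studied functions was called over the slope or by the F test. The bridging protein gene ttr-52 had means between -0.30 and 0.25 at the 7 ages, a slope of 0.0149 ± 0.0168 per day (SE, limma adjusted p = 0.571) and an F test with an adjusted p of 0.742. For ttr-11 the means lay between -0.53 and 0.67, with 13 of 17 worms above the pool at day 12 and 7 of 13 at day 4. Its difference of 1.20 ± 0.47 between these ages did not pass (SE, adjusted p = 0.0517), nor did its slope (0.0369 ± 0.0218 per day, SE, adjusted p = 0.218). With the smallest spread between worms of any member, ttr-33 was lower at day 12 than at day 4 by -0.62 ± 0.22 (SE, adjusted p = 0.0291); this call was lost with array weights, and its slope of -0.0133 ± 0.0104 per day did not pass (SE, adjusted p = 0.382).

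Genes that act with TTR-52 and TTR-11 in phosphatidylserine exposure and engulfment were counted beside them. Of 20 such genes, 2 rose and 3 fell over the slope, with a median of 0.00 per day, near the shares of all genes (13.7% higher and 14.2% lower), and for day 12 against day 4 only 1 was called, as higher. The risers were nrf-5, a secreted protein that helps transfer phosphatidylserine between cells, at 0.0805 ± 0.0135 per day (SE, limma adjusted p = 9.92e-07), and the lipid phosphatase gene mtm-1 at 0.0287. Among those that fell were ced-8, which acts in phosphatidylserine exposure, at -0.0402, and vps-34, a lipid kinase gene, at -0.0265. For ced-1, the receptor gene, the slope was 0.0011 ± 0.0071 per day (SE, limma adjusted p = 0.934). Of 8 genes of dopamine synthesis and signalling, counted beside ttr-33 against the same shares, 0 rose and 2 fell: bas-1, which encodes the decarboxylase that makes dopamine, at -0.0895 ± 0.0159 (SE, adjusted p = 3.76e-06) and the dopamine receptor gene dop-4 at -0.0468 ± 0.0115 (SE, adjusted p = 0.000813). The other 2 smallest p-values in that list were those of cat-2 (-0.0121) and cat-1 (0.0197), neither of which passed.

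The 18 members called in none of the 12 comparisons were ttr-2, ttr-8, ttr-9, ttr-11, ttr-12, ttr-13, ttr-14, ttr-19, ttr-20, ttr-22, ttr-27, ttr-28, ttr-29, ttr-37, ttr-52, ttr-53, ttr-55 and ttr-58. The gap between their highest and lowest age means was 0.546 to 1.53, and their slopes lay between -0.0574 and 0.0465 per day. Several of them differed widely between worms of 1 age, such as ttr-29 with a within-age SD of 1.51 and ttr-28 with 1.46. A missed threshold does not show that their levels were equal at all ages.

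Spread between worms of the same age was a feature of much of the family. The within-age SD had a median of 1.09 over the 49 members, from 0.594 for ttr-33 to 1.61 for ttr-59, against a median of 0.801 over all genes. For ttr-59, 99.6% of all genes had a smaller SD, and for ttr-6 (1.38) 96.9% did. Intensities were not used here, so how much of this spread comes from dim probes was not tested.

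Members also varied together between worms of the same age. After the mean of each age was removed, the correlation over worms exceeded 0.5 in 4.167% of 1176 member pairs, with a median r of 0.102, against 0.296% of 178387716 pairs of all genes, with a median of 0.0. The pairs share arrays, the pool and the amplification of each worm, so these are descriptions. The median within-age SD was also larger for members (1.09) than for all genes (0.801). Pairs of genes with a like spread were not counted, so the part of spread in this gap was not tested. The closest pair was that of the neighbours ttr-30 and ttr-59, with a Pearson r of 0.851 and a Spearman rho of 0.81 (over all worms); r was 0.835 without the 2 worms farthest from the median, and 0.771 to 0.942 within the single ages. Among other neighbours r was 0.771 for ttr-16 and ttr-17 and 0.751 for ttr-24 and ttr-25. Neighbouring genes did not always vary together, as ttr-1 and ttr-2 (0.056) show. Whether probes of neighbouring members share target sequence was not tested.

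Members from different chromosomes were close too. On chromosomes IV and V, ttr-16 and ttr-24 had an r of 0.809 (rho 0.763, over all worms, 0.783 without the 2 farthest worms). The r of ttr-2 and ttr-15, both on chromosome III but not neighbours, was 0.792, and that of ttr-5 and ttr-54, on chromosomes III and IV, was 0.741. With ttr-6 the highest r were those of ttr-16 (0.676), ttr-17 (0.628), ttr-18 (0.614) and ttr-5 (0.6), so worms with high ttr-6 for their age tended to be high for these. Within single ages, r of ttr-6 with ttr-16 ranged from 0.044 to 0.882, with ttr-17 from -0.184 to 0.898, with ttr-18 from -0.003 to 0.825 and with ttr-5 from 0.32 to 0.972. For ttr-17 and ttr-18 it was above 0 in 6 of 7 ages.

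**Figure D5:**
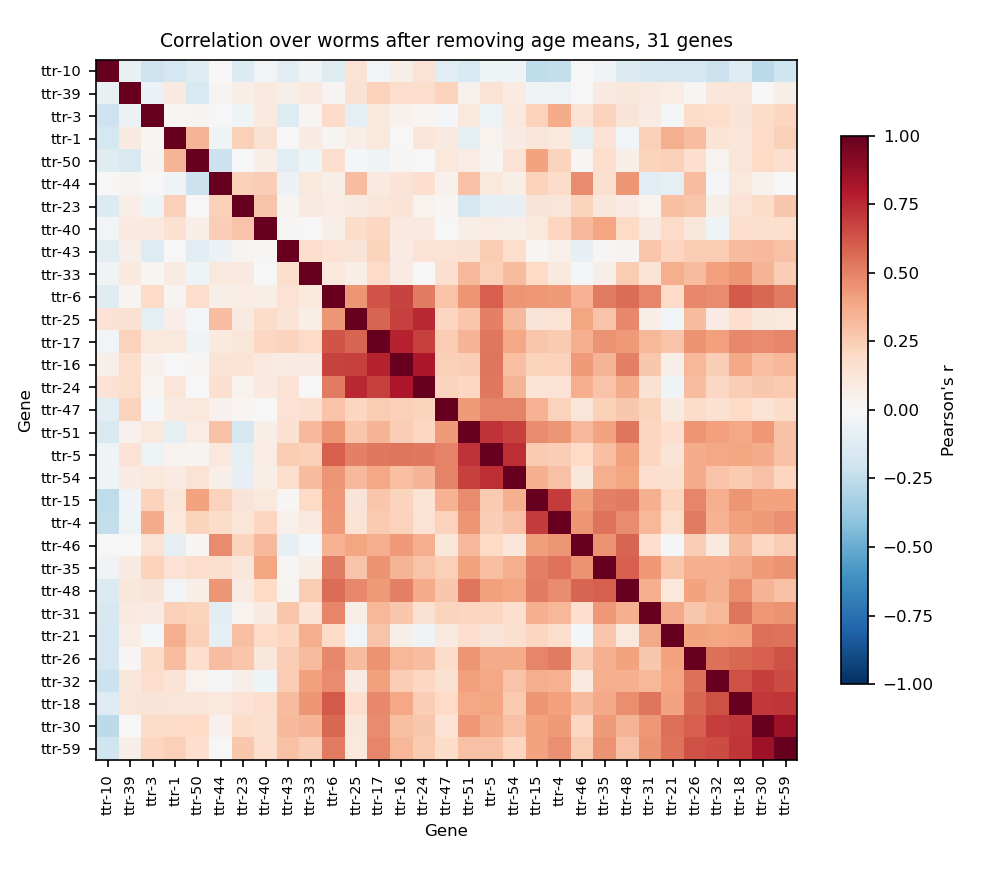
Pearson's r over all worms with a value, after the mean of each age was removed, between the 31 members called in at least 1 comparison, ordered by average-linkage clustering. Blocks of high r hold ttr-16, ttr-17, ttr-24 and ttr-25, then ttr-5, ttr-51 and ttr-54, and then ttr-18, ttr-30, ttr-32 and ttr-59, where ttr-30 and ttr-59 reach 0.851.

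Markers of tissues are given beside these results. Over all genes, 11.2% were lower and 11.5% higher at day 12 than at day 4. Of 6 body wall muscle markers, 5 were lower at day 12 than at day 4 and 0 higher, and their mean over worms was 0.05 at day 4 (worms from -0.96 to 1.37), -1.34 at day 12 (-2.48 to -0.04) and -0.76 at day 24 (-1.21 to 0.52). Of 9 oocyte and germline markers 5 were lower at day 12 and 0 higher, and the mean went from -0.21 (worms from -0.80 to 0.56) to -1.0 (-2.21 to 0.31). Of 10 intestinal markers 4 were lower and 1 higher at day 12, and the mean went from -0.46 (worms from -2.40 to 1.03) at day 4 to -1.16 (-3.13 to 0.40) at day 12 and -1.97 (-2.70 to -0.26) at day 24. For the other lists, higher and lower markers at day 12 numbered 1 and 0 of 7 for sperm, 1 and 2 of 8 for hypodermis, 0 and 0 of 6 for pharynx, 2 and 0 of 8 for neurons and 0 and 0 of 5 for glia. Over the slope, 6 of 10 intestinal and 7 of 9 oocyte and germline markers fell and 0 rose, against 14.2% and 13.7% of all genes. For body wall muscle 3 of 6 fell, led by the myosin gene unc-54 (-0.0841 per day), and 1 rose, the transcription factor gene hlh-1 (0.0749). For pharynx 1 of 6 rose, the transcription factor gene pha-4 (0.0719), and 0 fell. In the sperm, neuron and glia lists 3 of 7, 2 of 8 and 1 of 5 markers rose over the slope and 0 fell. For hypodermis 0 of 8 rose and 2 fell.

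Within ages, single members followed different marker lists. Worms high for the intestinal marker mean were high for ttr-46 (r = 0.726, rho = 0.682, over all worms, 0.703 without the 2 farthest worms). The r with the body wall muscle mean was 0.656 for ttr-16, 0.558 for ttr-6 and 0.509 for ttr-24, but 0.224 for ttr-30. Within single ages that of ttr-6 ranged from -0.079 to 0.776. With the pharyngeal mean r was 0.568 for ttr-21 (rho = 0.452, and r from 0.002 to 0.872 within single ages). With the oocyte and germline mean r was lowest for ttr-4, at -0.571. It was -0.529 for ttr-35, -0.463 for ttr-31, -0.46 for ttr-15 and -0.447 for ttr-6. The part of these tissues in the changes with age was not tested.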

How the data were processed

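The authors' deposited values are log2 ratios of worm over pool, 1 per probe and array; limma is named without a version in the submitters' processing notes, and base and direction are read here as limma's defaults. Which background correction and normalization came before is not given in the sources. The median absolute deviation was 0.579 to 0.601 on every array. Both deposited tables were identical (largest difference 0.0), and 0.537% of values were missing and left so. All arrays ran with the same dye orientation, so a dye effect is the same at every age.

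Probes were named through RefSeq (WBcel235, names and gene order only; 95.073% of 22490 matched) after dropping splice letters, and averaged per gene. limma 3.58.1 in R 4.3.3 (lmFit, eBayes) was fitted to all 104 arrays, with age in days or as a factor, two-sided. Members and lists were chosen with earlier results of these data known. Named members were ttr-6, ttr-52, ttr-33 and ttr-11, the 8 steepest called slopes each way, the 5 smallest p of the F test among the rest, and the 2 or 3 largest called changes each way per contrast; of each list, up to 4 genes with the smallest p. Others are counted, and pairs of correlated members and some further members were picked after their values were seen. Tested on simulated data over 18889 genes, 51.5% of genes given a slope of 0.05 per day and 99.0% of those given 0.1 were called. A day 24 minus day 4 difference of 1 was called in 30.5% and of 2 in 87.0%. Only a small share of genes was changed there, with normal noise independent between genes. In the data 27.8% of genes were called over the slope and 16.5% for day 24 against day 4. The simulated rates therefore do not carry over to the data. Alternatives were quantile normalization, array weights, robust moderation, a filter on missing values, the series matrix values, median centring, single probes and other sets of ages.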

Additional observations from a re-analysis of the deposited data

Results flagged for a closer look

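Day 24, with 9 worms, is the only group small enough for a check of single far worms, and 25 members were checked there. Chance flags about 5% of groups, and 3 of 25 had a worm far from the others for the spread of its group. The highest worm of ttr-52 was at 2.27, with the next at 0.55. The lowest worm of ttr-47 was at -2.41, with the next at -0.73, and the lowest of ttr-35 was at -3.03, with the next at -1.94. None of the 3 was called for day 24 against day 4, and no cause was tested.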

How the results depend on the processing

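Of 87 recounts of called members under the alternatives, 85 stayed within 1.5 times the count reported. Both exceptions came with array weights. For day 8 against day 4 these gave 6 called members in place of 11. For day 24 against day 12 they gave 5 in place of 2. The share of all genes called with these weights is not given here, and the cause was not tested. With days 12 to 24 alone, which drops the early ages, 3 called slopes changed sign: ttr-25 to 0.0089, ttr-44 to 0.0064 and ttr-50 to -0.0168 per day. Those of ttr-21, ttr-24, ttr-39, ttr-40 and ttr-46, 5 in number, kept their sign but were not called. The slopes of ttr-5, ttr-18, ttr-30 and ttr-59, not called over all ages, were called without day 4 as rises of 0.0814, 0.08, 0.125 and 0.109 per day. Those of ttr-47 and ttr-48, also not called over all ages, were called without day 24 as falls, at -0.0484 and -0.0583 per day. No paired analysis was possible because each worm was frozen once and gave 1 array at 1 age. How far dim probes limit the values was not tested, since spot intensities are not analysed here, and day 24 rests on 9 worms.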
